A study of Drosophila melanogaster with 2 samples.

Results

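Aminoacyl-tRNA synthetases attach each amino acid to its transfer RNA, the step that fixes the genetic code in translation. A fly cell carries 2 sets: cytosolic enzymes, which serve the ribosomes of the cytoplasm, and mitochondrial enzymes, which are encoded in the nucleus, imported, and serve the ribosomes inside mitochondria. The genes described here are the 33 protein-coding genes, of 13945 on the main chromosome arms, whose symbol is a three-letter amino acid name followed by RS, with or without the suffix -m for the mitochondrial form, together with GluProRS. By this rule there were 18 cytosolic and 15 mitochondrial genes. A symbol without the suffix was taken as cytosolic, although in humans the glycyl and lysyl enzymes of both compartments are known to come from shared genes, and the fly symbols Gln, Gly, His, Lys and Thr have no -m partner.

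Mnt is the repressor of the Drosophila Myc network, a basic helix-loop-helix leucine zipper protein. As a dimer with Max it recognises the E-box CACGTG, the site that dimers of Myc and Max also use. Myc is known in flies and mammals as an activator of genes for ribosomes and translation. The series mapped a Mnt-eGFP fusion protein by ChIP-seq, in which chromatin is pulled down (here through an anti-GFP antibody, per the labels) and its DNA sequenced, in 1 group of 2 biological replicates from whole adult females of unknown age. Both came from a single transgenic line, stably expressing Mnt with GFP at its C-terminus, so effects of the tag or of that line cannot be told apart from binding by Mnt itself. Whole flies pool all tissues: a strong signal in few cells and a weak one in many cannot be told apart. No group was set against another, and the genes of a list are not replicates, so no test was run: shares and levels are descriptions, and their spread is that between the 2 replicates.

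The measurements are peak lists. The reproducible list ("optimal" by the irreproducible discovery rate) held 7451 peaks on the dm6 build, each with a summit and a signal, the authors' own value for a region, from 77.1 to 2444. Behind it stood a pooled list of 30000 regions, which reaches down to a signal of 13.6 and includes weak background, and a list of 30000 regions for each replicate. Depth in reads is unknown. Genes with an optimal summit no more than 500 bp from at least 1 annotated transcription start site (TSS) are called bound, which held for 38.1% of all protein-coding genes.

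Sequences are shown for some of the synthetase summits with a motif within 100 bp, strong and weak peaks alike. Other strong peaks, such as those of SerRS (signal 418), AsnRS (336) and GluProRS (331), had none of the motifs searched within that distance. Each is read 5′ to 3′ in the direction of the synthetase gene from the reference genome (dm6, RefSeq Release 6 sequence), with the motif in capitals. The first pair are the synthetase summits with the E-box CACGTG within 100 bp, the next pair the neighbouring copies of the variant CACGCG (the second on the other strand) under the strongest synthetase peak, and the last 4 carry TATCGATA, the DRE, to which the transcription factor Dref binds.
GlnRS, chr3R:25265839-25265864, minus strand: tttcgtttcaCACGTGcaggcacgat
LeuRS-m, chr3L:4825819-4825844, plus strand: aattcccatcCACGTGagcgatgtgg
HisRS, chrX:18515382-18515407, plus strand: gttttcccacCACGCGacgaacggtc
HisRS, chrX:18515409-18515434, plus strand: cattgaccacCGCGTGcgaatttttt
AlaRS, chr2L:8381766-8381793, minus strand: tctctaaatcTATCGATAtctcatccag
ArgRS, chrX:15844162-15844189, minus strand: ctgttatcgtTATCGATAggcgacgtgt
IleRS, chr3L:22288613-22288640, plus strand: cggaacctacTATCGATAtcgcgaaccc
TrpRS, chr3R:9266959-9266986, minus strand: tatttctcatTATCGATAtttttaacag

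Mnt-eGFP summits stood within 500 bp of an annotated start of every cytosolic synthetase gene, but of fewer of the mitochondrial ones. With the canonical TSS only, 17 of 18 cytosolic and 6 of 15 mitochondrial genes were bound, against 35.2% of all protein-coding genes. In the optimal list 18 of 18 cytosolic genes (100%) and 6 of 15 mitochondrial genes (40.0%) were bound, so the mitochondrial share was close to the 38.1% of all protein-coding genes. The same order was found in each replicate through its own 7451 strongest regions. All 18 cytosolic genes were bound in both replicates, while 7 mitochondrial genes (46.7%) were bound in replicate 1 and 4 (26.7%) in replicate 2, a mean of 36.7% ± 14.1 (SD, n = 2). Among all protein-coding genes 39.0% were bound in replicate 1 and 33.2% in replicate 2, a mean of 36.1% ± 4.10 (SD, n = 2). The difference between cytosolic and mitochondrial shares was 60.0 percentage points in the optimal list, 53.3 in replicate 1 and 73.3 in replicate 2, larger than the spread between replicates. The bound mitochondrial genes were those for alanine, arginine, aspartate, leucine, phenylalanine and tyrosine.

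**Figure D1:**
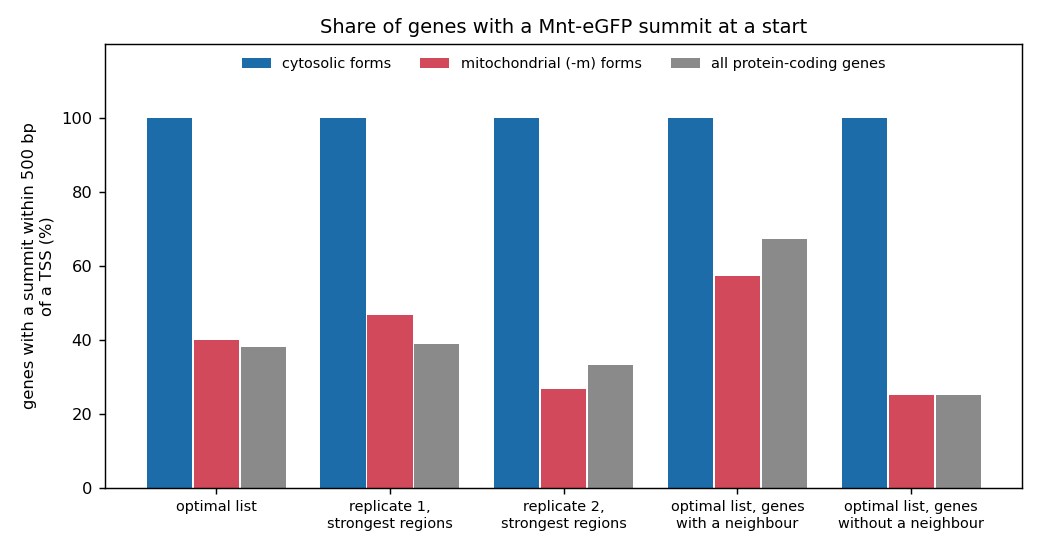
Bars give the share of genes (%) with a summit within 500 bp of a TSS, for the 18 cytosolic forms, the 15 mitochondrial (-m) forms and all protein-coding genes, in the optimal list, in each replicate's 7451 strongest regions, and in the optimal list split by whether another protein-coding gene starts within 500 bp. The cytosolic bars stand at 100% throughout, and the mitochondrial bar for the optimal list is at 40.0%, beside 38.1% for all protein-coding genes.

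The cytosolic genes also had the higher signals. The strongest optimal signal per bound gene had a median of 295 over the 18 cytosolic genes (range 114 to 1533), 136 over the 6 bound mitochondrial genes (range 79.0 to 196), and 171 over all 5316 bound protein-coding genes. Among the 1000 strongest optimal peaks were those of 8 cytosolic genes (44.4%) and 0 mitochondrial ones, against 20.5% of all bound genes. Leaving out the 2 cytosolic genes with the highest signals, HisRS and GlnRS, the median of the other 16 was 256 and their highest value 418. All 18 cytosolic genes and 4 of the 6 bound mitochondrial genes were in the strongest regions of both replicates, which held for 78.0% of all bound genes. Signals were higher in replicate 1, with a median ratio of replicate 1 to replicate 2 of 2.34 over the cytosolic genes, 2.40 over the bound mitochondrial genes and 2.51 over all bound genes with a region in both lists. The 2 lists have different scales, and ranks within each replicate are given only for HisRS and GlnRS.

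**Figure D2:**
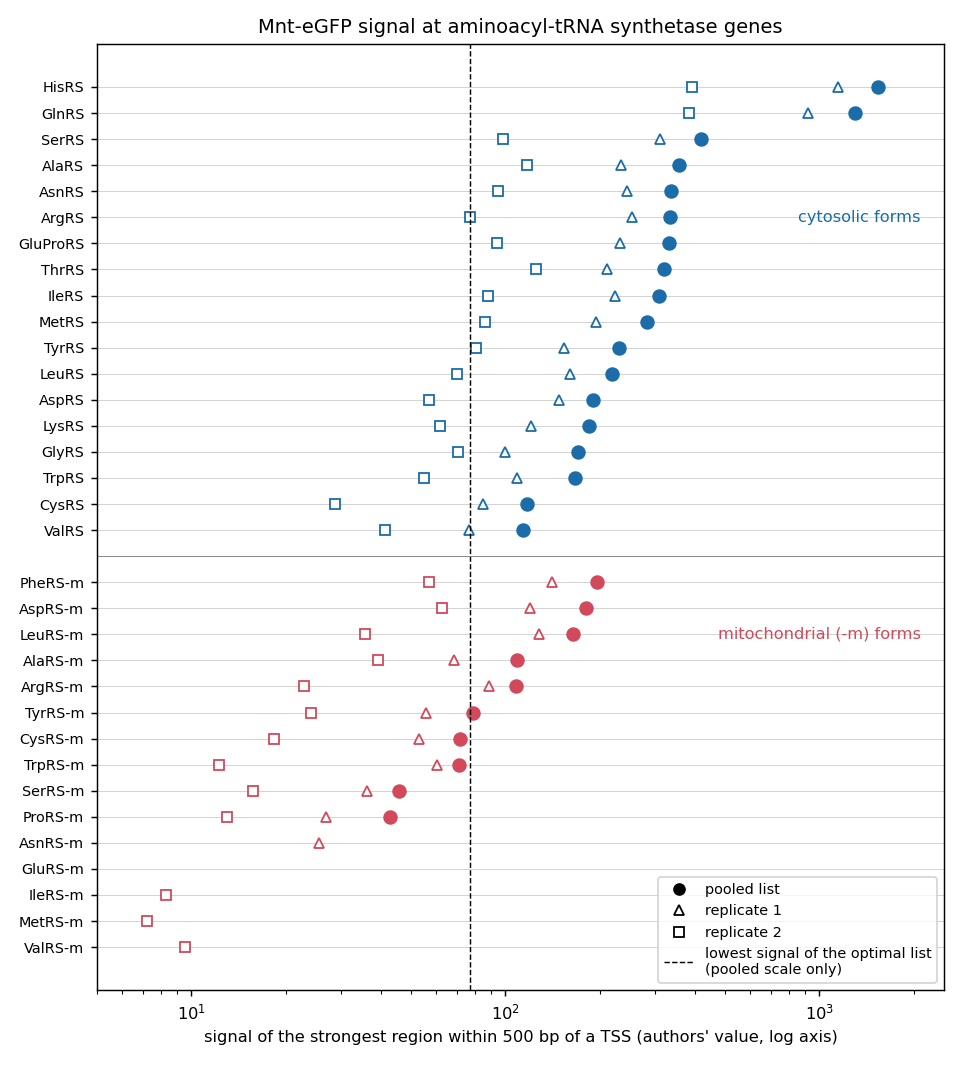
Each row is a synthetase gene, with the cytosolic forms above the mitochondrial (-m) forms, and the horizontal log axis is the authors' signal of its strongest region within 500 bp of a TSS in the pooled list (filled circles), replicate 1 (open triangles) and replicate 2 (open squares). The dashed line is the lowest signal of the optimal list, 77.1, and applies to the filled circles: all 18 cytosolic circles lie to its right, as do 6 mitochondrial ones, and GluRS-m has no point.

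HisRS (FBgn0027087), the histidyl-tRNA synthetase gene, carried the strongest peak of the family. Its peak on chromosome X runs from 18515089 to 18515667, with a pooled signal of 1533 and rank 10 of the 7451 optimal peaks. The signal was 1144 in replicate 1 (rank 9) and 392 in replicate 2 (rank 32), so it stood near the top of both lists. The summit lies in intergenic sequence 44 bp upstream of the HisRS start, at which a transcript of Bx, a gene for a LIM-only transcription cofactor, starts on the same base and strand, so the peak cannot be given to either gene alone. No CACGTG lies within 500 bp of this start. The copies of CACGCG printed above have their middles 33 and 6 bp upstream of the TSS, the first 10 bp from the summit.

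GlnRS (FBgn0027090), which charges glutamine transfer RNA, came second. Its signal was 1299 in the pooled list (rank 28), 918 in replicate 1 (rank 27) and 384 in replicate 2 (rank 34), again high in both. The peak, on chromosome 3R from 25265573 to 25266044, has its summit 69 bp upstream of the GlnRS start and 54 bp from the start of RIOK2, a kinase gene of small ribosomal subunit maturation that is read in the other direction. The E-box printed above lies 61 bp from the summit, with its middle 130 bp upstream of the GlnRS TSS and inside the 5′ UTR of RIOK2. Motif 1, the core promoter element GGTCACAC, lies over the GlnRS start itself, in ggtccggaacGGTCACACtgacctgcac (chr3R:25265706-25265733, minus strand). HisRS and GlnRS stood apart from the rest of the family, whose next signal was 418, at SerRS.

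SerRS, AlaRS, AsnRS and ArgRS followed. SerRS (FBgn0031497), the seryl enzyme, had a signal of 418 in the pooled list, 310 in replicate 1 and 98.4 in replicate 2, with the summit 3 bp upstream of its start and 5 bp from that of CG17260. AlaRS (FBgn0027094), the alanyl enzyme, had a signal of 356 in the pooled list, 234 in replicate 1 and 117 in replicate 2. Its summit lay in the 5′ UTR, 38 bp downstream of the nearest start, and no other protein-coding gene starts within 500 bp. AsnRS (FBgn0086443), the asparaginyl enzyme, had 336 in the pooled list, 244 in replicate 1 and 94.6 in replicate 2. For ArgRS (FBgn0027093), the arginyl enzyme, the values were 333, 253 and 76.8 in the same order. The 4 genes ranked between 567 and 884 in the optimal list, and in replicate 2 AlaRS rather than SerRS was the highest of them, so their order is within the spread of the replicates.

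The remaining 12 cytosolic genes had pooled signals from 331 at GluProRS, which encodes the fused glutamyl and prolyl enzymes, to 114 at ValRS. ThrRS had 320, IleRS 308, MetRS 282, TyrRS 230, LeuRS 219, AspRS 190, LysRS 184, GlyRS 170, TrpRS 166 and CysRS 117. In replicate 2 ThrRS was higher than every cytosolic gene except HisRS and GlnRS (125), which again shows that neighbours in this order are not separated. ValRS and CysRS were the lowest in the pooled list and in both replicates (76.3 and 85.1 in replicate 1, 41.2 and 28.7 in replicate 2). With summits up to 1000 bp from a TSS counted, the pooled signal of ValRS was 238, no longer among the lowest, and that of CysRS was again 117. In animals 8 of these activities, those for arginine, aspartate, glutamine, glutamate with proline, isoleucine, leucine, lysine and methionine, are known to assemble into a multisynthetase complex. Their genes had a median signal of 295 (range 184 to 1299) and the other 10 cytosolic genes 275 (range 114 to 1533), so the ranges overlapped. Synthetases fall into 2 structural classes that are unrelated in fold. Among cytosolic genes the median was 230 over the 9 of class I and 328 over the 8 of class II, leaving out GluProRS, which holds an enzyme of each, and the ranges again overlapped. Of the mitochondrial genes, 3 of 9 in class I and 3 of 6 in class II were bound, shares on either side of the 38.1% of all protein-coding genes.

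The highest mitochondrial signal was above those of 6 of the 18 cytosolic genes. PheRS-m (FBgn0275436), the mitochondrial phenylalanyl enzyme, was highest, with a signal of 196 in the pooled list (rank 2244), 141 in replicate 1 and 57.0 in replicate 2. AspRS-m (FBgn0051739), the aspartyl enzyme, had 181 in the pooled list (rank 2571), 120 in replicate 1 and 62.8 in replicate 2. LeuRS-m (FBgn0027085), the leucyl enzyme, had 164 in the pooled list (rank 2991), 128 in replicate 1 and 35.7 in replicate 2. These 3 lay above the cytosolic genes CysRS and ValRS in the pooled list and in replicate 1. The LeuRS-m peak runs from 4825696 to 4825809 on chromosome 3L with its summit near the edge, 52 bp upstream of the TSS. The E-box of LeuRS-m lies 21 bp upstream of the TSS, 30 bp from the summit and just beyond the end of the deposited peak.

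AlaRS-m (FBgn0028962) had signals of 109 in the pooled list, 68.5 in replicate 1 and 39.2 in replicate 2, and its summit was 26 bp from its own start and 9 bp from that of Fitm. ArgRS-m (FBgn0037526) had 108, 88.9 and 22.8 in the same order, and TyrRS-m (FBgn0035064) had 79.0, 55.9 and 24.0. Neither ArgRS-m nor TyrRS-m was among the 7451 strongest regions of replicate 2. TyrRS-m stood just inside the end of the optimal list, at rank 7265 of 7451.

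The 9 unbound mitochondrial genes fell into 2 kinds. At 4 of them (26.7% of the 15) the pooled list held a region at the start that was too weak for the optimal list, a state found at 24.8% of all protein-coding genes. CysRS-m (FBgn0033900) was just outside, with 71.7 in the pooled list, 53.0 in replicate 1 and 18.3 in replicate 2, and so was TrpRS-m (FBgn0036763), with 71.1, 60.7 and 12.2. TrpRS-m was among the strongest regions of replicate 1 alone. SerRS-m (FBgn0021750) had 45.8, 36.1 and 15.7, and ProRS-m (FBgn0027082) had 42.8, 26.9 and 13.0, each in the order pooled list, replicate 1, replicate 2. At the other 5 no pooled region lay within 500 bp. AsnRS-m (FBgn0034177) had a region of 25.4 in replicate 1 and none in replicate 2. IleRS-m (FBgn0036569), MetRS-m (FBgn0027083) and ValRS-m (FBgn0035942) had none in replicate 1, and in replicate 2 signals of 8.32, 7.23 and 9.54, close to the lowest value of that list, 6.51.

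GluRS-m (FBgn0036629), the mitochondrial glutamyl enzyme, was the single synthetase gene with no region in any of the 4 lists, a state shared by 30.8% of all protein-coding genes. It lies on chromosome 3L from 16415292 to 16417177, next to TyrRS, which spans 16417349 to 16419302 on the same strand. The nearest optimal summit to the GluRS-m start, 2350 bp away, is the one in front of TyrRS. Counting the full lists with their background regions, 18 of 18 cytosolic and 10 of 15 mitochondrial genes had a region at a start in the pooled list (62.9% of all protein-coding genes), 18 and 11 in replicate 1 (63.2%) and 18 and 13 in replicate 2 (57.3%). In these lists every cytosolic gene was present, while the mitochondrial share was near the general one in the pooled list (66.7%), above it in replicate 1 (73.3%) and farther above it in replicate 2 (86.7%).

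Setting the 2 genes of an amino acid side by side gave the same picture. For 12 amino acids the rule found a gene of each form. In 5 of these pairs (alanine, arginine, aspartate, leucine and tyrosine) both genes were bound, and in 7 (asparagine, cysteine, isoleucine, methionine, serine, tryptophan and valine) the cytosolic gene alone. The cytosolic gene had the higher signal, or the only region, in 12 of 12 pairs in the pooled list, 12 of 12 in replicate 1 and 11 of 12 in replicate 2. Where both genes had a value, the median ratio of cytosolic to mitochondrial signal was 2.62 in the pooled list (8 pairs), 2.76 in replicate 1 (9 pairs) and 3.36 in replicate 2 (11 pairs). The widest of the 8 pooled ratios was that of serine, 9.14, with 8.60 in replicate 1 and 6.28 in replicate 2. Pairs without a pooled ratio were wider in single replicates: asparagine in replicate 1 (9.61), isoleucine (10.5) and methionine (11.9) in replicate 2. The mitochondrial signals of the last pairs in replicate 2, 8.32 and 7.23, were close to the lowest of that list. Aspartate was the exception, with a pooled ratio of 1.05. AspRS had 148 in replicate 1 and 57.0 in replicate 2, and AspRS-m had 120 and 62.8, so the order turned between replicates. The pooled count of 12 of 12 and the ratio of 1.05 both rest on an internal start of AspRS. Within 500 bp of its canonical start AspRS had a pooled signal of 64.4, below the 181 of AspRS-m at its own.

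**Figure D3:**
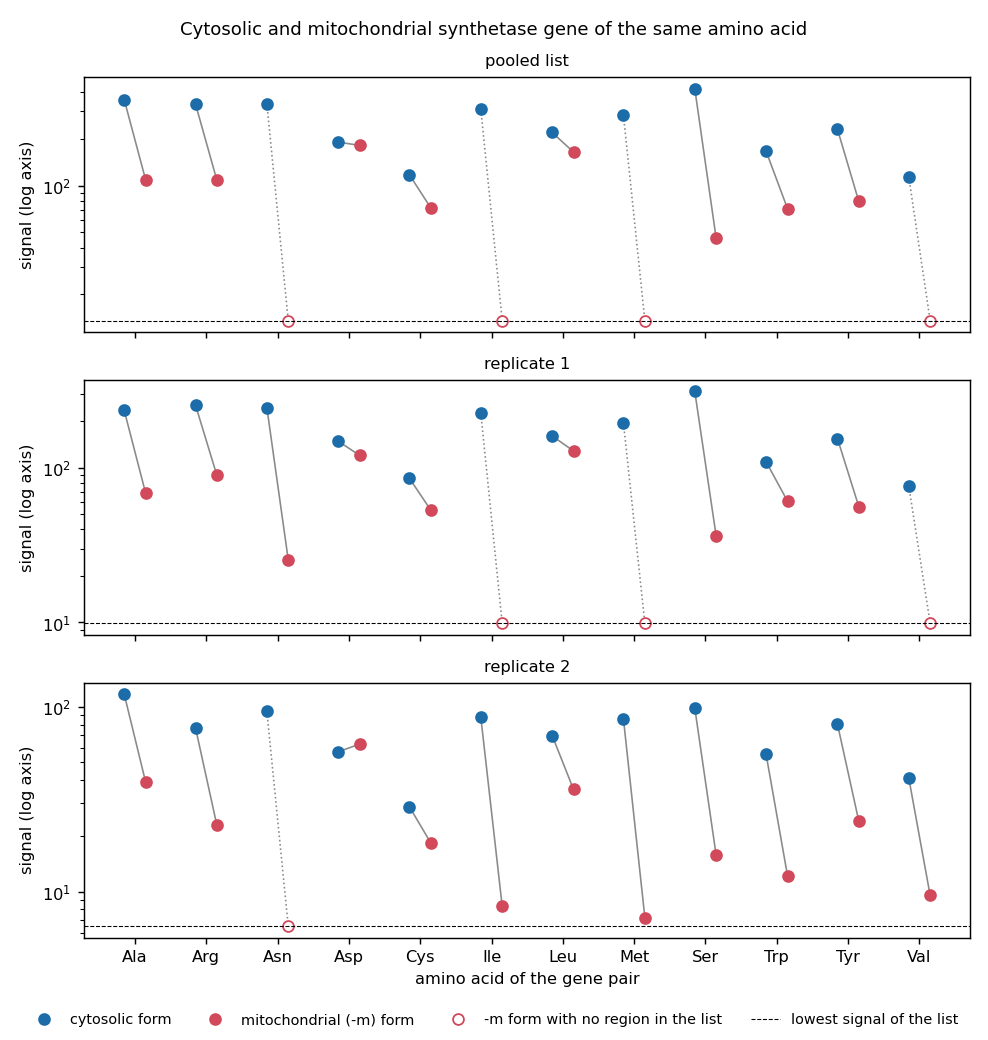
For each of the 12 amino acids with a gene of each form, the signal of the strongest region within 500 bp of a TSS is shown on a log axis for the cytosolic gene (blue, left) and the mitochondrial gene (red, right), in the pooled list, replicate 1 and replicate 2. An open circle on the dashed line, the lowest signal of that list, stands for a mitochondrial gene with no region in it; the single line that goes up is aspartate in replicate 2, with 57.0 for AspRS and 62.8 for AspRS-m.

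The cytosolic genes more often share their start region with another gene, which bears on the call because a summit counts for every start in reach. Another protein-coding TSS lay within 500 bp at 15 of 18 cytosolic genes (83.3%), 7 of 15 mitochondrial genes (46.7%) and 30.9% of all protein-coding genes. Among genes with such a neighbour, 15 of 15 cytosolic and 4 of 7 mitochondrial genes were bound, against 67.1% of all such genes. Among genes without one, 3 of 3 cytosolic genes (AlaRS, CysRS and ValRS) and 2 of 8 mitochondrial genes (AspRS-m and PheRS-m) were bound, against 25.1% of all such genes. The cytosolic share was the higher one within each kind, though the second rests on 3 genes. The order of the signals did not hold there: AlaRS had 356, CysRS 117 and ValRS 114, a median of 117, and AspRS-m had 181 and PheRS-m 196, a median of 189. The summit was nearer to the neighbour's start at AspRS, GlnRS, GluProRS and TyrRS among the cytosolic genes and at AlaRS-m among the mitochondrial ones. How much of the signal belongs to the synthetase and how much to the neighbour was not tested.

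Summits sat close to the starts in both forms. The median distance from the nearest TSS of the gene was 35.5 bp over the 18 cytosolic genes, 39.0 bp over the 6 bound mitochondrial genes and 76.0 bp over all bound genes. A summit within 100 bp was found at 13 of 18 cytosolic genes (72.2%) and 5 of 6 mitochondrial genes (83.3%), against 58.1% of all bound genes. Positions ran from 225 bp upstream (TyrRS) to 38 bp downstream (AlaRS), and all 6 mitochondrial summits, like 14 of 18 cytosolic ones, were upstream, as were 70.6% over all bound genes. At AspRS the call depends on an internal start: its summit is 3188 bp downstream of the start of the canonical transcript, 92 bp before another AspRS TSS and 38 bp from a start of Nmda1, and the pooled region nearest the canonical start had a signal of 64.4, below the optimal list. A second optimal summit within 500 bp was found at 6 of 18 cytosolic genes (33.3%) and 0 of 6 mitochondrial ones, against 25.0% of all bound genes.

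**Figure D4:**
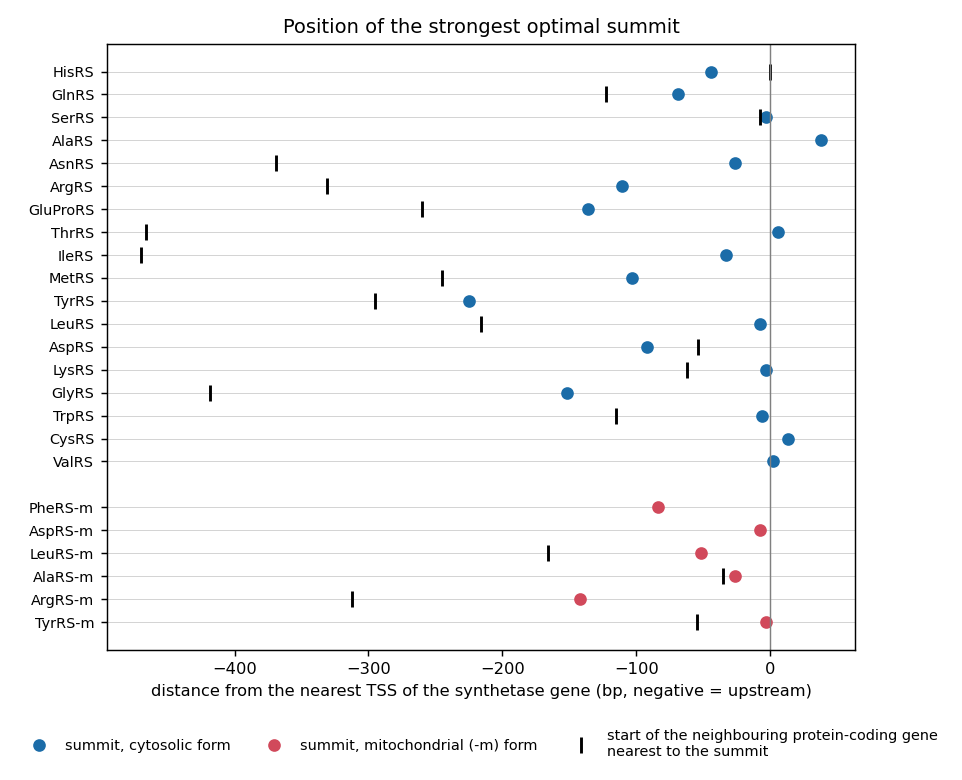
Circles give the position of the strongest optimal summit of each bound gene in bp from the nearest TSS of the synthetase gene (negative is upstream), for the cytosolic forms above and the mitochondrial (-m) forms below, and black ticks the start of the neighbouring protein-coding gene nearest to the summit. Summits run from 225 bp upstream at TyrRS to 38 bp downstream at AlaRS, and the tick of HisRS falls on its own start, where a Bx transcript also begins.

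The E-box that Mnt with Max recognises was about as frequent at the bound synthetase genes, 2 of 24, as at all bound genes. CACGTG (both strands) lay within 100 bp of the strongest summit at 1 of 18 cytosolic genes (GlnRS) and 1 of 6 bound mitochondrial genes (LeuRS-m), against 8.54% of all bound genes. Within 100 bp of the canonical TSS it was found at 0 of 18 cytosolic and 1 of 15 mitochondrial genes, against 2.92% of all protein-coding genes. Further copies lay within 500 bp of a start, farther from the summit: at LysRS (424 bp from the summit), ThrRS (364 bp) and TyrRS-m (356 bp). None of the 9 unbound mitochondrial genes had CACGTG within 500 bp of a start. Within 100 bp of the strongest summit, the variant CACGCG was at HisRS alone among the bound synthetase genes (9.09% of all bound genes), though TyrRS had a copy within 100 bp of its canonical TSS. In the same window around the summit, CATGTG was at 3 cytosolic genes (AspRS, TrpRS and ValRS) and at AlaRS-m (10.6%), and CAGCTG, the E-box of other dimers of this protein family, at 5 cytosolic and 3 mitochondrial genes (17.4%).

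The DRE was found at 6 of the 24 bound synthetase genes. CAGCTG, which is more frequent than the DRE at all bound genes (17.4%), was found at 8. TATCGATA (both strands) lay within 100 bp of the summit at 5 of 18 cytosolic genes (AlaRS, ArgRS, AspRS, IleRS and TrpRS) and 1 of 6 bound mitochondrial genes (PheRS-m, the strongest of them), against 11.2% of all bound genes. Around the canonical TSS it was found at 3 of 18 cytosolic and 1 of 15 mitochondrial genes, against 7.50% of all protein-coding genes. Its middle was 5 bp from the summit at IleRS, 53 bp at AlaRS, 62 bp at TrpRS, 80 bp at ArgRS, 77 bp at AspRS and 87 bp at PheRS-m. In the 4 sites printed above the DRE lies upstream of the nearest start, from 15 bp at AlaRS to 68 bp at TrpRS. At AlaRS that start is not the canonical one, and no DRE lies within 100 bp of the canonical TSS. At AspRS its middle is 14 bp upstream of an internal start. At PheRS-m its middle is 3 bp downstream of the start, beyond the end of the deposited peak. Within 100 bp of the strongest summit, Motif 1 was at GlnRS alone among the 24 bound synthetase genes (9.20% of all bound genes), and within 100 bp of the canonical TSS also at the unbound AsnRS-m and ProRS-m. A match shows that these letters are in the window and not that a factor was there.

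Genes that act beside the synthetases were taken from a list of 11, of which Mtfmt was not matched in the annotation. Of the 10 matched, 9 were bound, against 38.1% of all protein-coding genes, with a median signal of 129 (range 78.2 to 267), below the 171 of all bound genes. The subunits of the cytosolic phenylalanyl enzyme, which the symbol rule leaves out, were both bound: beta-PheRS had 267 in the pooled list, 197 in replicate 1 and 73.0 in replicate 2, and alpha-PheRS had 211, 147 and 61.3. Both lay above PheRS-m in all 3 lists. The genes of the scaffold proteins of the multisynthetase complex had signals of 208 at AIMP1, 94.7 at AIMP3 and 78.2 at AIMP2, the last close to the end of the optimal list. The mitochondrial amidotransferase, which makes glutaminyl-tRNA from glutamyl-tRNA where no mitochondrial GlnRS exists, was bound at GatA (218) and GatC (118) but not at GatB, whose pooled region had a signal of 47.8. The GatA summit was nearer the start of P5cr (42 bp) than that of GatA (116 bp), and PolG2 starts on the same base as GatC. The AIMP1 summit was nearer the start of PAN2 (44 bp) than that of AIMP1 (108 bp). How much of these signals belongs to the neighbour was not tested. Slimp, a mitochondrial relative of the seryl enzyme in insects, had 94.0, and Dtd, which removes D-amino acids from transfer RNA, had 129. Through the strongest regions of a single replicate, 9 of the 10 genes were bound in replicate 1 (39.0% of all protein-coding genes) and 6 in replicate 2 (33.2%).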

How the data were processed

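Peak lists from 2 Mnt-eGFP ChIP-seq replicates were used as deposited: the optimal, pooled and single-replicate dm6 lists (4 lists). Per the listings deposited beside the files, the pooled list comes from the alignments of both replicates and a further file. Aligner, peak caller and versions: not given in the sources used here. The labels name Mnt as the antibody in 1 field and an anti-GFP antibody in another. The signal and the −log10 q-value of each region are values deposited by the authors. The −log10 q-value is capped at 4.22 for all 7451 optimal regions, which are the pooled regions of highest signal, so ranks use the signal. Summits (region start plus offset) were set against Ensembl release 115 TSSs (35497 transcripts, transposable elements left out) and the Release 6 sequence, the same assembly as dm6, and 0 regions of the 4 lists were off its 6 arms or past their ends. Read depth is unknown, and the controls were not analysed here. The 4 dm3 lists were not used.

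The members, lists, groupings and alternatives were chosen with earlier results of these data known. Genes were named by a rule: the 6 strongest of each form, those with CACGTG at a summit, pairs with 1 bound gene and all unbound members. Calls and motif search were tested on simulated data. Tools were Python 3.11.15, numpy 2.4.6, pandas 2.3.3 and matplotlib 3.10.9. Alternatives were other distances, motif windows and summit rules, the stronger 3726 peaks, the canonical TSS, members without a neighbour, and each replicate alone.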

Additional observations from a re-analysis of the deposited data

How the results depend on the processing

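The cytosolic share of bound genes was above the mitochondrial share in all 9 alternatives that change the call. Counting a summit only for the gene with the nearest TSS moved the difference to 44.4 percentage points (77.8% of cytosolic and 33.3% of mitochondrial genes, 30.2% of all) and left 0 cytosolic genes with CACGTG. A tie counted for both genes, so HisRS, which shares its start with Bx, was kept. Among members with no other protein-coding TSS within 500 bp, 3 of 3 cytosolic and 2 of 8 mitochondrial genes were bound, a difference of 75.0 points, with median signals of 117 and 189, the reverse order, and 0 genes of either form had CACGTG. In the stronger 3726 optimal peaks 16 of 18 cytosolic and 3 of 15 mitochondrial genes were bound (23.8% of all), with a mitochondrial median of 181. Through single replicates the cytosolic medians were 83.2 and 202 and the mitochondrial ones 48.1 and 88.9, on the scales of those lists. CACGTG was at 0 cytosolic genes within 50 bp of a summit and at 2 within 250 bp. The cause of these changes was not tested. With the canonical TSS only, AspRS was not bound. No paired analysis was possible because there is 1 group. Without read counts, a weak region at an unbound gene cannot be told from background.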
